A study of Homo sapiens with 11 samples.

Results

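The 33 genes described here act in homologous recombination, in the Fanconi anemia pathway and in DNA mismatch repair. They are the rows of the raw count table whose Ensembl ID carries the symbol of a member. The members were named with earlier results of these data known. All 33 were found, out of 61464 rows, and all 33 were among the 17963 genes with enough counts to be tested. Polyadenylated RNA was sequenced from HCT116, a human colorectal carcinoma line of epithelial origin that the labels give as ras mutant and that is known to be deficient in mismatch repair. The groups were cells kept for 48 h with GTEA1 (4 libraries) or GTEA7 (4 libraries), triterpenoid extracts of the bracket fungus Ganoderma, and cells kept with DMSO (3 libraries), the solvent control. All of them share the line and its ras mutation and carry the same batch label, no dose is given, and nothing says that replicates were separate cultures, so p-values measure only the spread between these libraries.

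Homologous recombination rebuilds a broken chromosome from the sister copy and is known to work in S and G2 phase, when that copy exists. Nucleases first trim the break, BRCA2 and its partners load a recombinase on the exposed strand, and motors and helicases carry the exchange forward and take it apart. The Fanconi pathway recognises crosslinked strands through a core complex that attaches ubiquitin to FANCD2 and FANCI, after which recombination proteins finish the repair. Mismatch repair proteins follow the replication fork and remove copying errors, and their loss is a known route to colorectal cancer.

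Total counts ran from 13742326 to 16433111 in the GTEA1 libraries, from 14955685 to 19304211 in the GTEA7 libraries and from 13866350 to 17431515 in the DMSO libraries. Levels are given as CPM, a gene's count scaled to a common library total with TMM factors. The error after ± is the SD of the replicates for a CPM (n = 4 with either extract, n = 3 with DMSO) and the standard error for a log2 change. Adjusted p-values are those of edgeR's quasi-likelihood test after Benjamini-Hochberg adjustment over all genes tested, and a gene passes below 0.05. The summed level of 8 epithelial and colon markers was 2776 to 2905 CPM with GTEA1, 2238 to 2336 CPM with GTEA7 and 2237 to 2387 CPM with DMSO, and 6 of the 8 averaged at least 1 CPM in every group. The others, VIL1 and LGALS4, stayed below that. Immune markers summed to at most 0.897 CPM in any library, and CD3E had 0 counts throughout. The 6 endothelial markers summed to 3.76 to 4.32, 2.95 to 4.47 and 2.76 to 3.73 CPM with GTEA1, GTEA7 and DMSO. Fibroblast markers summed to 38.4 to 46.5 CPM with GTEA1, 37.0 to 46.1 CPM with GTEA7 and 54.0 to 55.4 CPM with DMSO, most of it COL1A1, while DCN and LUM were at or near 0.

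Most of this repair set was lower with GTEA1. Of the 33 genes, 26 fell and 4 rose against DMSO, and 13 fell by at least 2-fold. Over all genes tested, 36.2% were lower, 35.6% were higher and 12.4% were at least 2-fold lower, against 78.8%, 12.1% and 39.4% of the set. The median log2 fold change was -0.86 in the set and -0.01 over all genes. Together the 33 genes took 0.0779% ± 0.00208 of all counts with GTEA1, 0.136% ± 0.00473 with GTEA7 and 0.137% ± 0.000787 with DMSO. The heat map of single libraries shows the set split by role: the Fanconi genes and most recombination genes were low in the GTEA1 libraries, while XRCC3, NBN, PMS1 and PMS2 were high. In 25 genes each GTEA1 library was below each DMSO library (34.8% of all genes tested), and in those 4 each was above (33.9%). In bulk RNA, fewer cells that express a gene and less RNA per cell cannot be told apart.

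**Figure D1:**
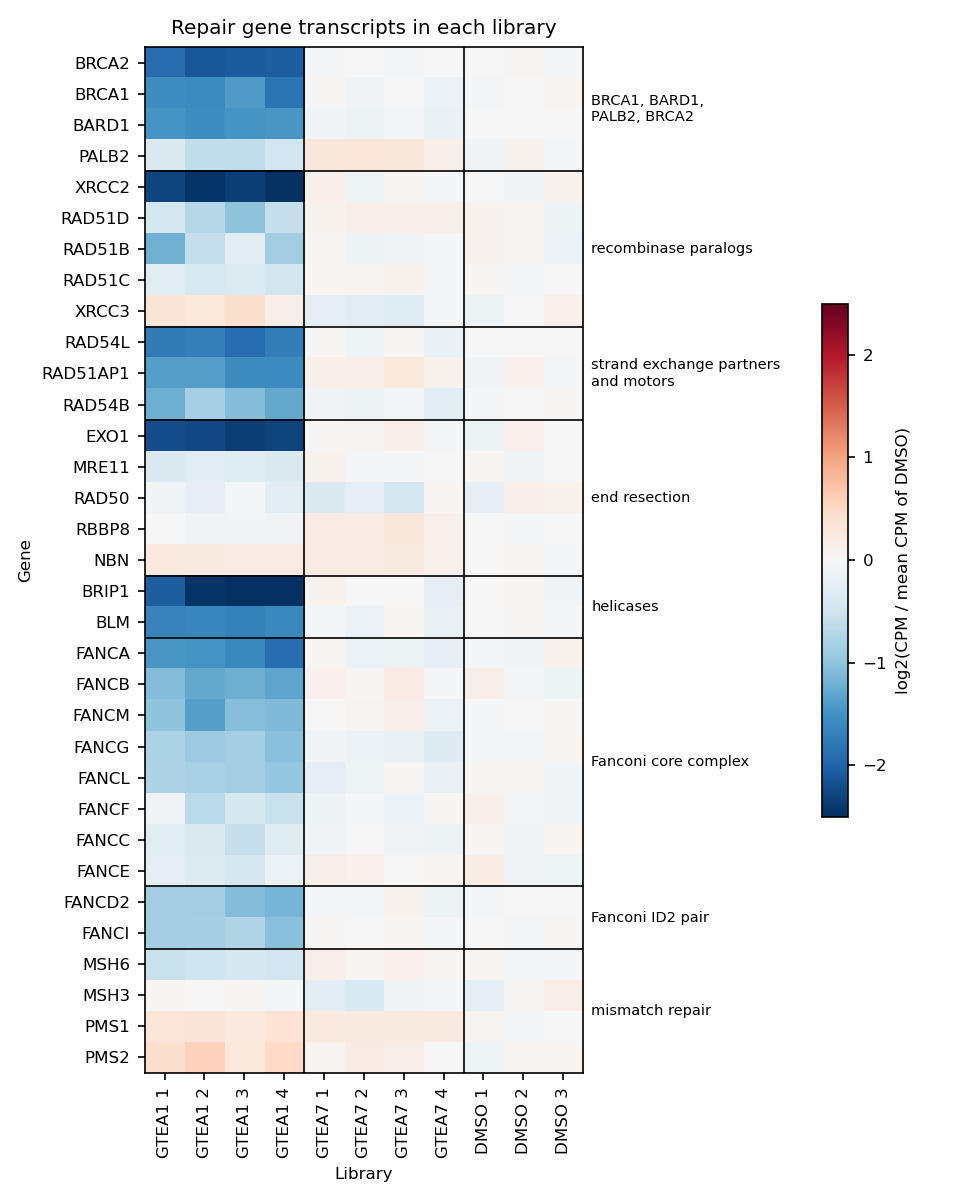
Each row is 1 of the 33 repair genes and each column 1 library; colour gives log2 of the CPM over the mean CPM of the 3 DMSO libraries, with rows grouped by role. The GTEA1 columns are blue (lower) for most recombination and Fanconi genes and pale red for PMS1 and PMS2, while the GTEA7 columns stay near 0.

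The genes with the steepest falls and the rises frame the set, so the sequences around their starts are shown. The windows run from 250 bases before to 50 after a gene's start (RefSeq, GRCh38.p14), are printed 5′ to 3′ on the gene's strand, and have capitals where an E2F-type word occurs. E2F factors are known to drive many S phase genes. The words searched, on either strand, were TTCCCGC and its variants with other inner letters, which are TTGGCGC for the first, TTCGCGC for the second and TTGCCGC for the third. XRCC2, BRIP1 and EXO1 had the largest falls. Their windows lie at chr7:152676092-152676391 (minus strand), chr17:61863479-61863778 (minus strand) and chr1:241847954-241848253 (plus strand). EXO1 has another window, at chr1:241848481-241848780, which holds no such word and is not printed.
XRCC2: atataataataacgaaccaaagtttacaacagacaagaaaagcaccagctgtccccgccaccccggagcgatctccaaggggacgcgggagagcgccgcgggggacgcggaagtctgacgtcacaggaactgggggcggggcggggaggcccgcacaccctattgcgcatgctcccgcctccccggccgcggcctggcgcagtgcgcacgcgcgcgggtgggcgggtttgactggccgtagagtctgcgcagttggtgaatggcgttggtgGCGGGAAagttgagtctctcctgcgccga
BRIP1: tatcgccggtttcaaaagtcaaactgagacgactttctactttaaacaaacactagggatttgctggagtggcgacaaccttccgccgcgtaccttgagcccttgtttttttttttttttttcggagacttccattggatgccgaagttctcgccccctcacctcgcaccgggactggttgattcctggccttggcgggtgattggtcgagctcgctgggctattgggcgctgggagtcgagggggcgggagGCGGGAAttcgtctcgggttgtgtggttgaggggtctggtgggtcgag
EXO1: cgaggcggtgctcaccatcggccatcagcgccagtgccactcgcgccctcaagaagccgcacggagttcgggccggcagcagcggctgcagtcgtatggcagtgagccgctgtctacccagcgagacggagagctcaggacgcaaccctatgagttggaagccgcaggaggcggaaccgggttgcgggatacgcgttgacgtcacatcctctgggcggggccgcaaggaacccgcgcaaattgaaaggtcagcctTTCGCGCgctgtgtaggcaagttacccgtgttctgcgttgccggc

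PMS1 and PMS2 rose with GTEA1, and MSH3 was at 0.02 ± 0.11 (log2 fold change). Their windows lie at chr2:189784200-189784499 (plus strand), chr7:6009057-6009356 (minus strand) and chr5:80654402-80654701 (plus strand). PMS2 has another, overlapping window, at chr7:6009000-6009299, which holds the same word and is not printed. The capitals of MSH3 cover a pair of overlapping words on opposite strands.
PMS1: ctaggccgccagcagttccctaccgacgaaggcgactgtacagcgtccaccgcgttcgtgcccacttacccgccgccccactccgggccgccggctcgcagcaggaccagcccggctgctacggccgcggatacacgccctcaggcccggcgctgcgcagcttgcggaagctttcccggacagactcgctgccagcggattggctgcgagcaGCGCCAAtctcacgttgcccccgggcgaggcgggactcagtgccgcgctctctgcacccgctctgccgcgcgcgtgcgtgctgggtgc
PMS2: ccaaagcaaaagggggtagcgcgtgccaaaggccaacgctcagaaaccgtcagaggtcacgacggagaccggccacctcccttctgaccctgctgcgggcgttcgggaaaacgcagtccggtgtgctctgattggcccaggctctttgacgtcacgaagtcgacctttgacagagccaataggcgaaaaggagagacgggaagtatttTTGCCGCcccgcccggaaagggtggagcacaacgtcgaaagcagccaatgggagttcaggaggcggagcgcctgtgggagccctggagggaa
MSH3: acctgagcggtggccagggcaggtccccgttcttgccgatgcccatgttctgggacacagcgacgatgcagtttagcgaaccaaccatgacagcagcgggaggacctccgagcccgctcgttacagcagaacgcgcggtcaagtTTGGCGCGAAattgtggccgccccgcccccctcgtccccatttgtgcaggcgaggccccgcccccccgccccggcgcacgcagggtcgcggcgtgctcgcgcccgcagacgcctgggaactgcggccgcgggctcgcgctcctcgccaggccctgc

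E2F-type words stood in windows of genes that fell and of genes that rose. A window was found for 30 of the 33 genes; RAD54B, NBN and FANCI had none. At least 1 word stood in a window of 21 of these 30 (70.0%), against 24.3% of the 11562 tested genes that have a window. Among genes at least 2-fold lower with GTEA1 it was 9 of 12, and among those lower by less it was 8 of 12. Among those higher it was 3 of 3 (PMS1, PMS2 and XRCC3). Among those that did not pass it was 1 of 3 (MSH3, but not RAD50 or RBBP8). BRCA2 fell 4.12-fold with no such word in its window. In the set, the CCAAT box, spelled CCAAT, was in 14 of 30 (42.8% of tested genes), the GC box GGGCGG in 24 of 30 (75.2%), and the mitotic CHR element TTTGAA in 2 of 30, BRIP1 and FANCC (13.6%). A match is a description of these letters, not a binding site.

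BRCA1, BARD1, PALB2 and BRCA2 form the chain that brings the recombinase to a break, and all 4 fell with GTEA1. BRCA2 (ENSG00000139618), which loads the recombinase onto DNA, had 12.5, 10.8, 11.1 and 11.3 CPM in the GTEA1 libraries, 45.5, 47.2, 45.8 and 47.4 CPM with GTEA7 and 47.3, 48.0 and 45.6 CPM with DMSO. Each GTEA1 library was far below the others, and GTEA7 overlapped with DMSO. The fall was 4.12-fold (log2 fold change -2.04 ± 0.06, adjusted p = 9.9e-33). BRCA1, the ubiquitin ligase and scaffold of the chain, averaged 18.9 ± 2.17 CPM with GTEA1, 54.8 ± 2.93 CPM with GTEA7 and 57.0 ± 1.36 CPM with DMSO (log2 fold change -1.59 ± 0.06, adjusted p = 5.6e-28 for GTEA1 against DMSO). BARD1, its obligate partner, fell by a like amount (log2 fold change -1.49 ± 0.07). The CPM ratio of BRCA1 to BARD1 was 1.64 ± 0.199 with GTEA1, 1.80 ± 0.0469 with GTEA7 and 1.75 ± 0.0431 with DMSO (SD). PALB2 (ENSG00000083093), the bridge between BRCA1 and BRCA2, had 17.7, 14.9, 14.9 and 16.4 CPM in the GTEA1 libraries, 27.5, 28.1, 27.7 and 24.7 CPM with GTEA7 and 21.8, 24.3 and 22.2 CPM with DMSO. It was lowest in the GTEA1 libraries and highest in the GTEA7 libraries, with no overlap between groups. Its fall with GTEA1 was smaller (log2 fold change -0.52 ± 0.07, adjusted p = 1.7e-08), so the ratio of BRCA2 to PALB2 was 0.716 ± 0.0239 with GTEA1, 1.73 ± 0.129 with GTEA7 and 2.07 ± 0.0992 with DMSO (SD).

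Of the 5 paralogs of the recombinase, which work in complexes that help it assemble, 4 fell and 1 rose with GTEA1. XRCC2 (ENSG00000196584) had 8.44, 7.57, 8.05 and 7.45 CPM in the GTEA1 libraries, 45.0, 38.4, 42.5 and 40.1 CPM with GTEA7 and 41.1, 39.1 and 43.6 CPM with DMSO. GTEA1 stood alone, and the GTEA7 and DMSO libraries were intermixed. Its fall of 5.23-fold was the largest of the 33 genes (log2 fold change -2.39 ± 0.07, adjusted p = 2.0e-32). RAD51B (-0.69 ± 0.13), RAD51C (-0.36 ± 0.06) and RAD51D (-0.69 ± 0.09), which meet XRCC2 in a single complex, fell less on the log2 scale. The CPM ratio of XRCC2 to RAD51C was 0.268 ± 0.00480 with GTEA1, 1.06 ± 0.0741 with GTEA7 and 1.09 ± 0.0469 with DMSO (SD). RAD51B had the largest CV of the 33 genes between GTEA1 libraries (27.6%), from 3.38 to 6.48 CPM. XRCC3 (ENSG00000126215), which pairs with RAD51C in a separate complex, had 21.0, 20.2, 22.2 and 18.6 CPM in the GTEA1 libraries, 14.3, 14.0, 13.6 and 16.4 CPM with GTEA7 and 15.3, 16.9 and 18.0 CPM with DMSO. It was higher in each GTEA1 library than in any other (log2 fold change 0.29 ± 0.08, adjusted p = 0.00076), but 76.7% of its annotated exon bases also lie in exons of KLC1 on the opposite strand. KLC1, a kinesin light chain gene, rose too (log2 fold change 0.65 ± 0.05), and when libraries were scaled by size alone the change of XRCC3 was 0.13 and did not pass (adjusted p = 0.12).

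The partners and motors of strand exchange all fell with GTEA1. RAD54L (ENSG00000085999), a motor protein that moves along DNA during the search for the matching strand, had 4.91, 5.00, 4.39 and 4.95 CPM in the GTEA1 libraries, 16.8, 15.2, 16.7 and 14.7 CPM with GTEA7 and 16.6, 16.5 and 16.2 CPM with DMSO. The GTEA1 values lay close together and far below those of GTEA7 and DMSO (3.42-fold, log2 fold change -1.77 ± 0.10, adjusted p = 4.1e-22). LRRC41, whose exons on the opposite strand cover 25.1% of the exon bases of RAD54L, rose (log2 fold change 0.72 ± 0.05). RAD54B, a related motor, had 3.14, 4.11, 3.47 and 3.02 CPM in the GTEA1 libraries, 6.91, 6.76, 7.25 and 6.04 CPM with GTEA7 and 7.22, 7.34 and 7.52 CPM with DMSO. All GTEA1 values were below all others (log2 fold change -1.10 ± 0.13, adjusted p = 1.2e-10). It shares 59.1% of its exon bases with FSBP on the same strand, which fell as well (-0.61 ± 0.14). RAD51AP1, which stimulates strand pairing, averaged 8.52 ± 0.738 CPM with GTEA1, 26.3 ± 1.41 CPM with GTEA7 and 23.7 ± 1.66 CPM with DMSO (log2 fold change -1.49 ± 0.08 for GTEA1 against DMSO).

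**Figure D2:**
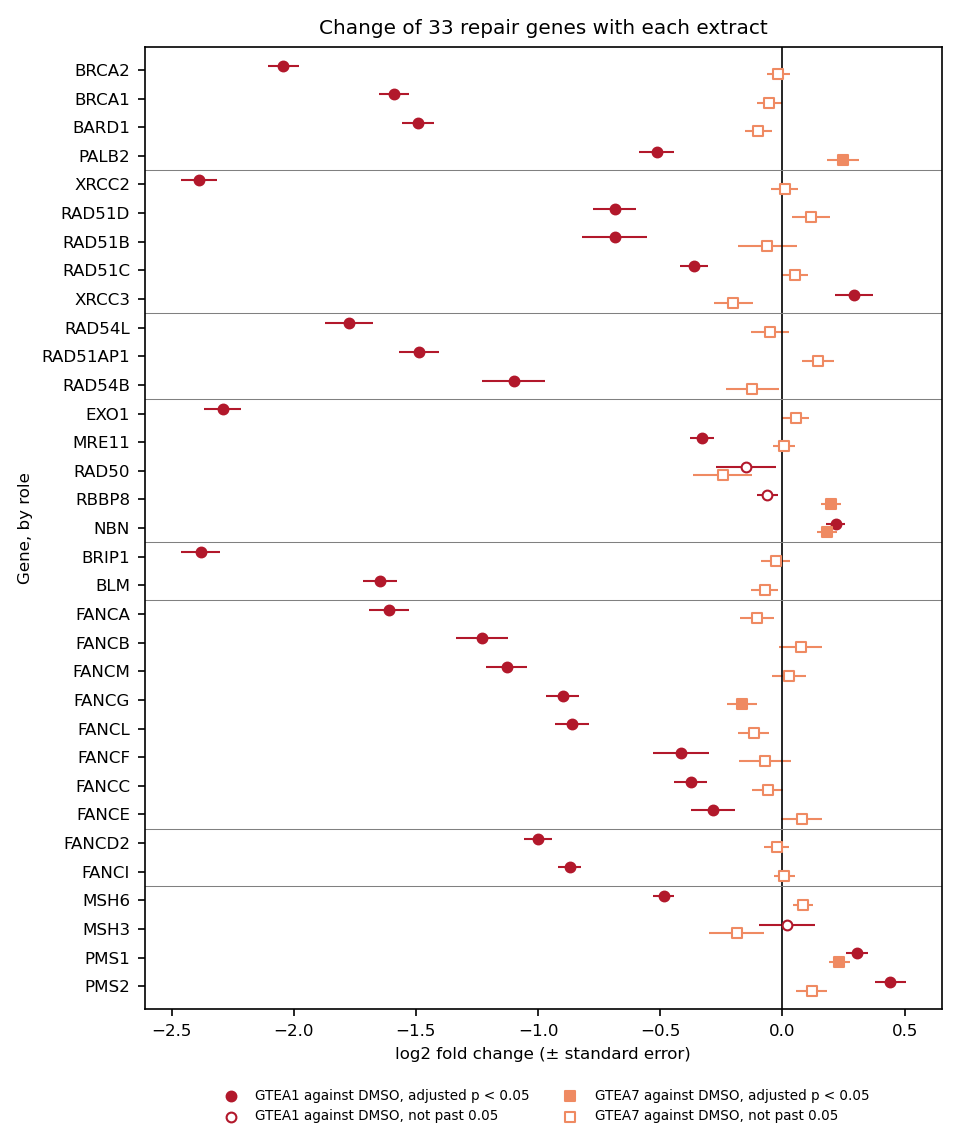
Log2 fold change (x axis, with standard error bars) of each of the 33 genes (y axis, grouped by role) for GTEA1 against DMSO (circles) and GTEA7 against DMSO (squares), filled where the adjusted p is under 0.05. GTEA1 runs from -2.39 for XRCC2 to 0.44 for PMS2, and GTEA7 from -0.24 for RAD50 to 0.25 for PALB2.

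End resection did not move as 1 block. MRE11, RAD50 and NBN form the complex that senses and first cuts a broken end, RBBP8 (CtIP) switches that cut on, and EXO1 is the long-range nuclease that follows. EXO1 (ENSG00000174371) had 7.82, 7.57, 7.07 and 7.26 CPM in the GTEA1 libraries, 37.1, 37.9, 39.8 and 35.7 CPM with GTEA7 and 33.3, 39.1 and 36.4 CPM with DMSO. The GTEA1 libraries did not come near the rest (4.89-fold lower, log2 fold change -2.29 ± 0.08, adjusted p = 2.8e-31). MRE11 fell by 0.33 on the log2 scale (adjusted p = 6.1e-08), and the CPM ratio of EXO1 to MRE11 was 0.173 ± 0.00921 with GTEA1, 0.695 ± 0.0491 with GTEA7 and 0.673 ± 0.0802 with DMSO (SD). NBN (ENSG00000104320) had 106, 105, 104 and 104 CPM in the GTEA1 libraries, 104, 102, 106 and 96.5 CPM with GTEA7 and 88.9, 92.6 and 88.5 CPM with DMSO. Each library of either extract was above each DMSO library (log2 fold change 0.22 ± 0.04, adjusted p = 4.4e-06 for GTEA1). Scaled by library size alone, NBN was at 0.06 with GTEA1 and did not pass (adjusted p = 0.20). RBBP8 (ENSG00000101773) had 93.7, 88.5, 89.7 and 88.3 CPM in the GTEA1 libraries, 108, 107, 115 and 101 CPM with GTEA7 and 94.5, 92.4 and 95.0 CPM with DMSO. GTEA1 overlapped with DMSO (log2 fold change -0.06 ± 0.04, adjusted p = 0.18), though scaled by library size alone it was at -0.22 and passed (adjusted p = 8e-06). RAD50 was at -0.15 ± 0.12 on the log2 scale with GTEA1 (adjusted p = 0.27), and at -0.31 and past the threshold with library size only (adjusted p = 0.022). It was counted thinly, at 0.714 CPM per kb of exon with DMSO against 7.03 for MRE11 and 14.6 for NBN. A second gene ID (ENSG00000283782) covers 79.7% of its exon bases on the same strand and had 0 counts in all 11 libraries, so its level is uncertain.

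Both helicases of the set fell steeply. BRIP1 (ENSG00000136492), the helicase bound by BRCA1 and also known as a Fanconi gene, had 14.3, 10.9, 10.5 and 10.7 CPM in the GTEA1 libraries, 63.6, 59.6, 60.0 and 51.6 CPM with GTEA7 and 60.7, 62.0 and 57.0 CPM with DMSO. GTEA1 replicate 1 was somewhat above its group, but still far from any GTEA7 or DMSO library (5.21-fold lower, log2 fold change -2.38 ± 0.08, adjusted p = 1.1e-21). BLM, the Bloom syndrome helicase that dissolves joined strands, had 12.0, 12.3, 11.8 and 12.5 CPM in the GTEA1 libraries, 37.5, 34.2, 39.4 and 33.6 CPM with GTEA7 and 38.0, 38.7 and 37.3 CPM with DMSO. Its GTEA1 values were tight and did not overlap with the others (3.13-fold lower, log2 fold change -1.65 ± 0.07, adjusted p = 2.8e-27).

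The Fanconi genes of the set fell with GTEA1, but by unequal amounts. Of 13 other Fanconi pathway genes, described below, 5 fell (38.5%, beside 36.2% of all genes tested). All 8 core complex genes of the set fell (median -0.88 on the log2 scale). FANCA (ENSG00000187741), a scaffold of the complex, had 27.8, 27.0, 24.7 and 20.3 CPM in the GTEA1 libraries, 78.1, 69.0, 69.1 and 65.4 CPM with GTEA7 and 74.6, 72.6 and 80.5 CPM with DMSO. It was 3.05-fold lower in the GTEA1 libraries (log2 fold change -1.61 ± 0.08, adjusted p = 7.8e-12), while ZNF276, whose exons on the opposite strand cover 23.6% of those of FANCA, fell by 0.92. FANCM, the translocase that anchors the complex on DNA, was at -1.13 ± 0.08. FANCB, the X-linked subunit, was at -1.23 ± 0.11, and FANCL, the ubiquitin ligase subunit, at -0.86 ± 0.07. FANCG (ENSG00000221829), an adaptor subunit, had 17.9, 16.6, 17.3 and 15.0 CPM in the GTEA1 libraries, 29.9, 28.4, 27.5 and 24.8 CPM with GTEA7 and 30.6, 30.6 and 32.4 CPM with DMSO, each GTEA1 library below each of the others (log2 fold change -0.90 ± 0.07, adjusted p = 1.1e-16). FANCE, which contacts FANCD2, had 12.0, 11.1, 10.6 and 12.7 CPM in the GTEA1 libraries, 15.7, 15.1, 14.3 and 14.5 CPM with GTEA7 and 16.0, 13.2 and 13.1 CPM with DMSO. The highest GTEA1 library came close to the lowest DMSO library (log2 fold change -0.28 ± 0.09, adjusted p = 0.0041), and without DMSO replicate 1 the log2 fold change was -0.18 and did not pass (adjusted p = 0.093). FANCC (-0.38 ± 0.07), the partner of FANCE, and FANCF (-0.42 ± 0.11), an adaptor, fell on the same small scale, and FANCF overlapped between GTEA1 and DMSO.

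The core complex acts on FANCD2 and FANCI, which close together around DNA once ubiquitin is attached. FANCD2 (ENSG00000144554) had 33.4, 33.4, 28.7 and 27.4 CPM in the GTEA1 libraries, 59.5, 60.0, 65.1 and 55.9 CPM with GTEA7 and 60.3, 61.4 and 61.9 CPM with DMSO, and fell with GTEA1 to just short of a 2-fold difference (log2 fold change -1.0 ± 0.06, adjusted p = 1.3e-20). FANCI (ENSG00000140525) had 60.1, 60.8, 65.7 and 53.6 CPM in the GTEA1 libraries, 113, 109, 113 and 106 CPM with GTEA7 and 109, 108 and 113 CPM with DMSO. It fell 1.83-fold (log2 fold change -0.87 ± 0.05, adjusted p = 1.3e-22). In either gene the GTEA1 libraries lay apart from a mixed GTEA7 and DMSO cluster. The CPM ratio of FANCD2 to FANCI was 0.513 ± 0.0547 with GTEA1, 0.545 ± 0.0222 with GTEA7 and 0.557 ± 0.0109 with DMSO (SD).

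**Figure D3:**
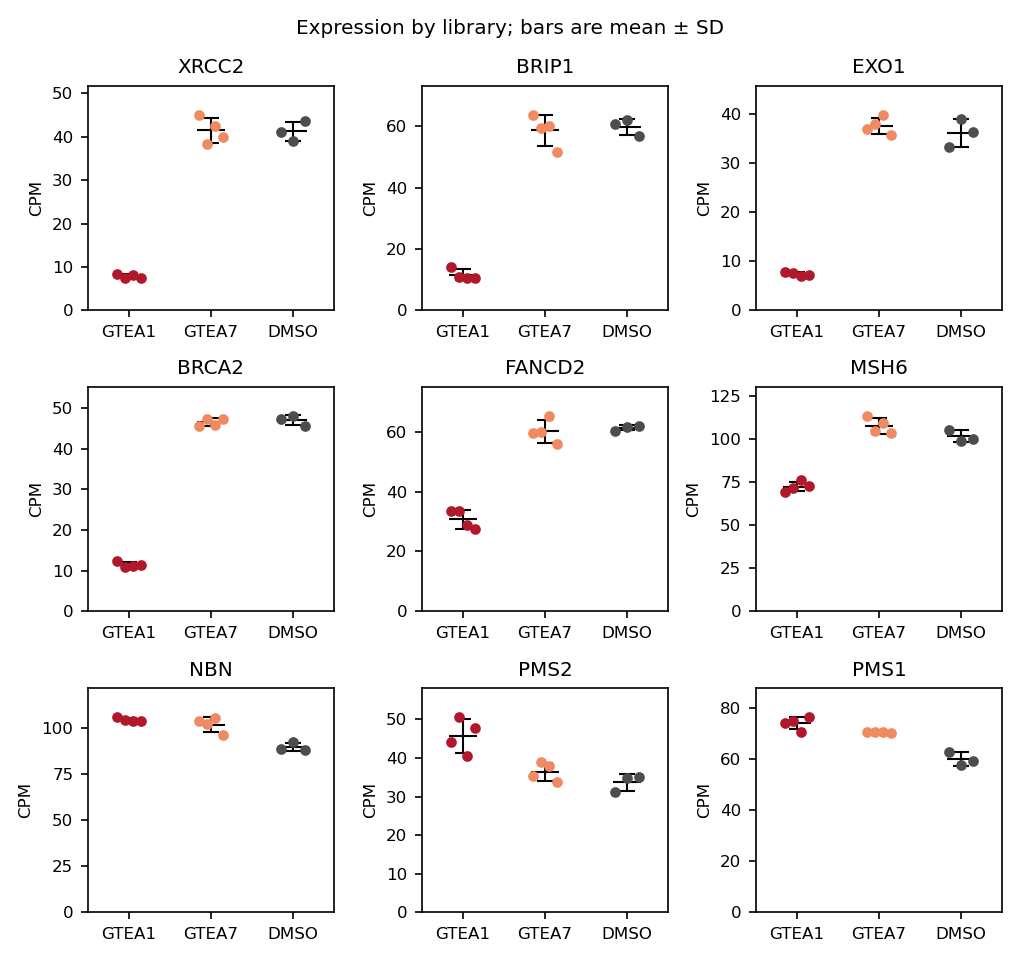
CPM (y axis, from 0) in each library for 9 of the genes, by group (x axis), with the mean and SD in black. XRCC2, BRIP1, EXO1, BRCA2 and FANCD2 have low GTEA1 points and overlapping GTEA7 and DMSO points, while NBN, PMS1 and PMS2 have their GTEA1 points above DMSO.

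The 4 mismatch repair members did not move one way: 1 fell, 2 rose and 1 did not pass. Over all genes tested, 36.2% fell and 35.6% rose, and 4 genes are too few to tell their shares from these. MSH6 (ENSG00000116062), the subunit that recognises single mismatches, had 69.4, 71.8, 76.1 and 72.8 CPM in the GTEA1 libraries, 113, 105, 110 and 103 CPM with GTEA7 and 106, 99.2 and 100 CPM with DMSO. It fell 1.40-fold with GTEA1 (log2 fold change -0.49 ± 0.04, adjusted p = 1.6e-14). MSH3, its counterpart for longer loops, had 7.44, 7.27, 7.46 and 6.94 CPM in the GTEA1 libraries, 6.05, 5.58, 6.78 and 6.96 CPM with GTEA7 and 6.17, 7.34 and 8.14 CPM with DMSO. The groups overlapped throughout (log2 fold change 0.02 ± 0.11, adjusted p = 0.9). PMS1 (ENSG00000064933), a MutL protein of minor known role, had 74.4, 75.1, 70.9 and 76.5 CPM in the GTEA1 libraries, 70.8, 70.6, 70.6 and 70.3 CPM with GTEA7 and 63.0, 57.8 and 59.4 CPM with DMSO. Both extracts were above DMSO in each library (log2 fold change 0.30 ± 0.04, adjusted p = 2.7e-08 for GTEA1). PMS2 (ENSG00000122512), the endonuclease subunit of the main MutL complex, had 44.2, 50.5, 40.5 and 47.8 CPM in the GTEA1 libraries, 35.4, 38.8, 38.0 and 33.8 CPM with GTEA7 and 31.1, 34.9 and 35.0 CPM with DMSO. It had the largest rise of the 33 genes with GTEA1 (log2 fold change 0.44 ± 0.06, adjusted p = 6.7e-08), and the ratio of MSH6 to PMS2 was 1.60 ± 0.198 with GTEA1, 2.96 ± 0.222 with GTEA7 and 3.03 ± 0.314 with DMSO (SD). PMS2 has near-identical copies that can share its reads. Of these, PMS2P1 rose (0.76 ± 0.10) and PMS2P5 rose (0.45 ± 0.20). PMS2CL, the most counted copy, was at -0.06 ± 0.07 (adjusted p = 0.46). PMS2P3 (-0.16 ± 0.12) and PMS2P4 (-0.12 ± 0.21) did not pass either, so the division of reads is uncertain.

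Few genes of the set passed the test with GTEA7. Against DMSO, 4 of the 33 genes rose (12.1%) and 1 fell (3.03%), beside 12.0% and 10.4% of all genes tested (22.5% in either direction), so the share that rose was near the background. No member changed by 2-fold, as 0.284% of all genes did downwards and 0.295% upwards. The median log2 fold change was -0.02 in the set and -0.01 over all genes. PALB2 (0.25 ± 0.07, adjusted p = 0.0039), PMS1 (0.23 ± 0.04, adjusted p = 5.0e-05), RBBP8 (0.20 ± 0.04, adjusted p = 0.00019) and NBN (0.18 ± 0.04, adjusted p = 0.00042) rose, and for these 4 each GTEA7 library was above each DMSO library, as for RAD51D, which did not pass, and 15.6% of all genes. FANCG was the gene that fell (-0.17 ± 0.06, adjusted p = 0.042), and its call was lost in 4 of 8 alternative fits. The count that fell was 0 without DMSO replicate 2 or 3 or GTEA7 replicate 2 or 3, and 2 (RAD50 and XRCC3) without GTEA7 replicate 4. The genes with the largest falls in GTEA1 were at 0.01 ± 0.05 (XRCC2), -0.03 ± 0.06 (BRIP1), 0.05 ± 0.06 (EXO1) and -0.02 ± 0.05 (BRCA2) with GTEA7, none past the threshold. The widest values not past it were RAD50 (-0.24 ± 0.12) and XRCC3 (-0.20 ± 0.08, adjusted p = 0.061).

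Set directly against GTEA1, GTEA7 had higher levels of 27 of the 33 genes and lower levels of 2, beside 36.2% and 36.4% of all genes tested (72.7% in either direction). In 12 the level with GTEA7 was at least 2-fold higher and in 0 at least 2-fold lower, beside 11.2% and 8.62% of all genes. The median log2 fold change was 0.76 in the set and 4.0e-04 over all genes. XRCC2 (2.40 ± 0.07), BRIP1 (2.35 ± 0.08), EXO1 (2.34 ± 0.07) and BRCA2 (2.03 ± 0.06) differed most. XRCC3 (-0.50 ± 0.07, adjusted p = 4.5e-08) and PMS2 (-0.32 ± 0.06, adjusted p = 4.3e-06) were lower with GTEA7. RBBP8, which passed in neither direction for GTEA1 against DMSO, was higher with GTEA7 than with GTEA1 (0.26 ± 0.04, adjusted p = 4.1e-08). RAD50, NBN, MSH3 and PMS1 did not pass, at -0.09 ± 0.12, -0.03 ± 0.04, -0.21 ± 0.11 and -0.07 ± 0.04. This comparison and that of GTEA1 with DMSO share the GTEA1 libraries.

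Per kb of annotated exon, the set spanned a wide range of levels, and the order changed with GTEA1. With DMSO the highest levels were RBBP8 (18.5 CPM per kb), NBN (14.6) and FANCI (14.1), and the lowest RAD50 (0.714), RAD51B (1.04) and RAD54B (1.39). RAD50 and RAD54B share 79.7% and 59.1% of their exon bases with another gene on the same strand, so their levels are uncertain. XRCC2 and PMS2 were close with DMSO, at 8.51 and 8.56 CPM per kb. With GTEA1 they stood at 1.62 and 11.6 CPM per kb. With GTEA7 they stood at 8.55 and 9.27 CPM per kb. Across the 33 genes, the log2 fold change with GTEA1 had a Spearman rho of -0.02 with the level per kb in DMSO, 0.26 with GC content and -0.06 with exon length, as a description over genes that share the same libraries. The between-replicate CV of CPM had a median over the 33 genes of 7.54% with GTEA1, 5.65% with GTEA7 and 4.34% with DMSO.

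The rest of the pathways was read from lists of genes that are not members, and the values in parentheses here are log2 fold changes of GTEA1 against DMSO. Their counts stand beside the 36.2% of all genes tested that fell and the 35.6% that rose. Of 27 tested genes of recombination and of the resolution of joined strands, 15 fell and 9 rose with GTEA1, and the list's median was -0.39. The smallest adjusted p belonged to falls of the nuclease GEN1 (-1.64 ± 0.07), the helicase MCM8 (-1.79 ± 0.09), BRCC3 (-1.09 ± 0.06), a deubiquitinase of the BRCA1-A complex, and RPA1 (-0.66 ± 0.04), a subunit that coats single strands. Those that rose included UIMC1 and BABAM1 of the same BRCA1-A complex and the nuclease MUS81 with its scaffold SLX4: UIMC1 (0.69), BABAM1 (0.54), MUS81 (0.58) and SLX4 (0.29). The annealing protein RAD52, the helicases WRN and RTEL1 (the second overlaps another annotated gene), SWI5 and SEM1 also rose: RAD52 (0.42), WRN (0.48), RTEL1 (0.55), SWI5 (0.88) and SEM1 (0.24).

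Of 13 other Fanconi pathway genes, 5 fell and 2 rose with GTEA1, and the list's median was -0.14. The share that fell, 38.5%, was near the 36.2% of all genes. The 6 that did not pass included FAAP100 (-0.12 ± 0.06) and FAAP20 (0.09 ± 0.07). UBE2T, the ubiquitin conjugase that serves FANCL, fell (-0.93 ± 0.06), as did CENPX (-1.22 ± 0.07), which binds FANCM, and the ligase RFWD3 (-0.59 ± 0.04). ERCC1 (1.34 ± 0.05) and ERCC4 (0.20 ± 0.08), the subunits of a nuclease that cuts beside crosslinks, rose. ERCC4 overlapped between GTEA1 and DMSO, and exons of POLR1G on the opposite strand cover 28.6% of the exon bases of ERCC1. The count that rose was 1 without DMSO replicate 2 or GTEA1 replicate 4, and scaling by library size alone gave 9 that fell and 1 that rose. Of 12 other mismatch repair genes, many of them shared with replication, 10 fell and 2 rose, and the list's median was -0.93. The falls with the smallest adjusted p were those of the ligase LIG1 (-1.31 ± 0.06) and of the clamp loader subunits RFC5 (-1.18 ± 0.05), RFC3 (-1.16 ± 0.06) and RFC2 (-0.94 ± 0.06). The loader subunit RFC4 fell less (-0.47 ± 0.05). The loader subunit RFC1 (0.21 ± 0.04) and the small polymerase subunit POLD4 (2.34 ± 0.16) rose. Scaled by library size alone, 1 of the list rose. POLD4 had only 584 counts over all libraries, and another gene on the same strand covers 21.3% of its exon bases.

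Damage signalling and the other repair routes held genes that fell and genes that rose. Of 13 damage signalling genes, 9 fell and 3 rose with GTEA1, and the list's median was -0.33. The checkpoint adaptor CLSPN (-2.38 ± 0.07), the kinase CHEK1 (-0.95 ± 0.05), the histone gene H2AX (-1.71 ± 0.08) and TOPBP1 (-0.66 ± 0.04) fell, and the kinases ATM (1.04 ± 0.06) and ATR (0.12 ± 0.04) and TP53BP1 (0.13 ± 0.04) rose; scaled by library size alone, 1 of the list rose. Of 14 end joining genes, 8 fell and 4 rose, and the list's median was -0.34. POLQ (-1.64 ± 0.06), the polymerase of an alternative route, PARP1 (-0.80 ± 0.04) and the Ku subunit XRCC6 (-0.72 ± 0.04) fell. Those that rose were LIG3 (1.05), LIG4 (0.40), POLL (0.52) and NHEJ1 (0.59 ± 0.25). NHEJ1 had only 196 counts over all libraries, and another gene on the same strand covers 65.4% of its exon bases. Of 21 nucleotide and base excision genes, 9 fell and 6 rose, and the list's median was -0.07. These shares, 42.9% and 28.6%, were near those of all genes (36.2% and 35.6%), and scaled by library size alone 3 of the list rose. The glycosylases UNG (-1.22 ± 0.05) and NEIL3 (-1.69 ± 0.09) and the nuclease APEX1 (-0.71 ± 0.04) fell, and RAD23B, MBD4, ERCC6, TDG, XPC and OGG1 rose: RAD23B (0.32), MBD4 (0.55), ERCC6 (0.46), TDG (0.25), XPC (0.25) and OGG1 (0.36).

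Genes of S phase and mitosis moved with the repair set. GTEA1 lowered all 18 (median on the log2 scale -1.72), among them the helicase subunits MCM5 (-1.79 ± 0.06) and MCM6 (-1.27 ± 0.04), GINS2 (-2.80 ± 0.09) and the cyclin gene CCNB1 (-1.75 ± 0.05). Of 15 E2F and DREAM regulators, 12 fell and 1 rose, and the list's median was -1.01. E2F1 (-2.18 ± 0.10), its dimer partner TFDP1 (-1.43 ± 0.04), FOXM1 (-2.07 ± 0.07) and RBL1 (-1.44 ± 0.07) fell, and E2F4, a repressor, rose by a small amount (0.13 ± 0.04). When libraries were scaled by size alone, the rise of E2F4 did not pass. With GTEA7, 5 of the 18 S phase and mitosis genes fell against DMSO (27.8%, beside 10.4% of all genes tested), with a median of -0.03. Of the 18, 0 rose, beside 12.0% of all genes. Without DMSO replicate 2 or 3 or GTEA7 replicate 3 or 4, 2 fell. Without GTEA7 replicate 4, 2 rose, and without DMSO replicate 1, 1 rose. The 2 comparisons share the DMSO libraries. The part of these cell cycle genes in the fall of the repair genes was not tested.

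**Figure D4:**
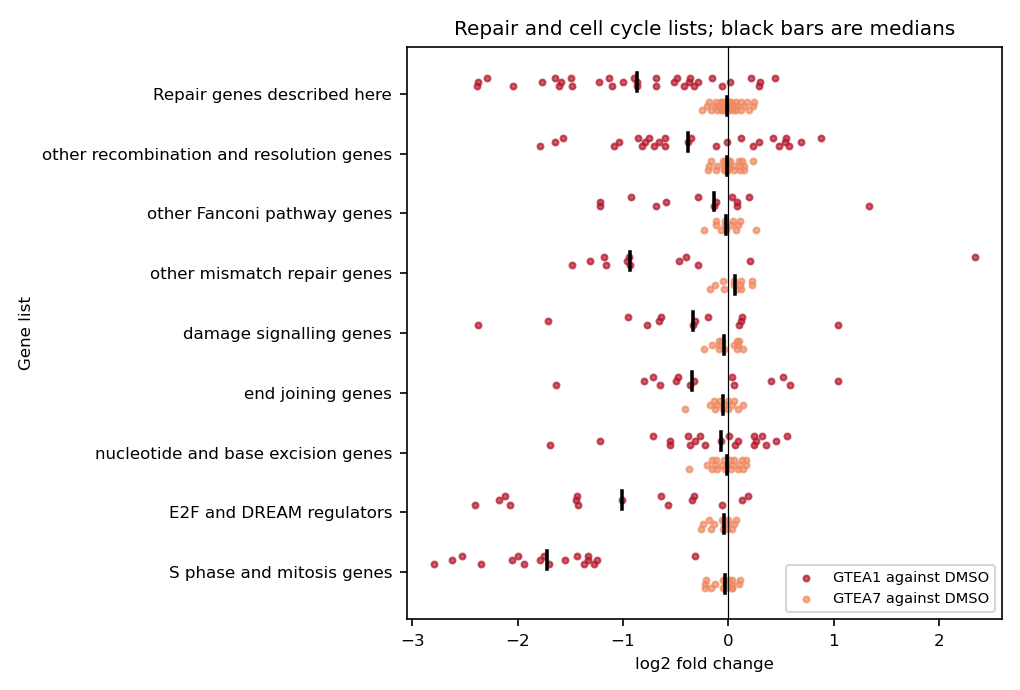
Log2 fold change (x axis) of each tested gene in the repair set and in 8 other lists (y axis), for GTEA1 against DMSO (upper row of each list) and GTEA7 against DMSO (lower row), with black bars for the medians. With GTEA1 the medians are -0.86 for the repair set and -1.72 for S phase and mitosis genes, and with GTEA7 all medians lie near 0.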

How the data were processed

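RNA of 11 HCT116 libraries was measured by sequencing, with groups taken from the labels. The authors deposited raw read counts per gene. Without roles, the submitters' processing notes name HTSeq 0.5.4, DESeq 1.10.1, SAMtools 0.1.18, STAR, GATK and Picard. The build, the annotation and the strandedness of the counting were not given in the sources used here, and genes that overlap on either strand may share or lose reads.

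Low counts were removed with filterByExpr (edgeR 4.0.16, R 4.3.3), counts were scaled by TMM, and 1 robust quasi-likelihood model of all 11 libraries gave the 3 comparisons, with Benjamini-Hochberg adjustment over all 17963 genes. IDs outside Ensembl, 0.517% to 1.10% of a library's counts, stayed in. A table of gene names gave symbols for 60370 IDs. Exon lengths, GC content and overlaps came from GENCODE v29 (GRCh38), which may differ from the authors' annotation. The method was tested on simulated data. Members, lists and motif words were chosen with earlier results of these data known. All 33 members are named. Values in each library are given for the members of each role with the largest and smallest change in GTEA1 and for those past the threshold in GTEA7; PMS2 was added after its values were seen, as were the ratios, and genes of other lists are among those with the smallest adjusted p or with the less common direction. The alternatives were no filter or a stricter one (1 CPM in 3 libraries), DESeq2 size factors, library size only, limma-voom 3.58.1, DESeq2 1.42.0, only the compared groups, the replicate number as a block, and leaving out each library. Replicates of a group differed by more than sampling noise (chi-square per gene 1.39 to 4.09), so none were merged. A result on 1 neighbouring gene is not reported here.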

Additional observations from a re-analysis of the deposited data

Results flagged for a closer look

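In 2 genes a single GTEA1 library stood apart from the other 3. BRIP1 was at 14.3 CPM in GTEA1 replicate 1, with the next library at 10.9 CPM, and this gap was 0.876 of the range of the group. RAD54L was at 4.39 CPM in GTEA1 replicate 3, with the next library at 4.91 CPM, a gap of 0.858 of the range. Both gaps exceed Dixon's critical value for 4 libraries. In all, 66 groups of 4 libraries were examined in this way, and chance singles out about 1 in 20.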

How the results depend on the processing

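With GTEA1 against DMSO, the count of repair genes that fell was 26 to 28 over the 8 alternative fits (26 as reported) and 25 to 26 when 1 library was left out. The count that rose was 4 in all of these except with library size as the only scaling, where it was 2; that scaling put the median over all genes at -0.17 and that over the 33 genes at -1.02 (log2). With GTEA7 against DMSO, 4 rose in each alternative fit and 4 to 5 when 1 library was left out, while the count that fell, 1 as reported, was 0 with no low-count filter, with DESeq2 size factors and with the DESeq2 test, 2 with only the compared groups, 4 with library size only, and 0 to 2 when 1 library was left out. With GTEA7 against GTEA1, 27 were higher in all these fits and 2 to 3 lower. No member that passed changed sign in any alternative run. FANCG with GTEA7 lost its call with no filter (-0.15, adjusted p = 0.11), with DESeq2 size factors (-0.16, adjusted p = 0.056), with the DESeq2 test (-0.16, adjusted p = 0.12), and without any 1 of the DMSO replicates or GTEA7 replicate 2, 3 or 4 (adjusted p = 0.060 to 0.19). XRCC3, not past the threshold with GTEA7 as reported, passed with only the compared groups (adjusted p = 0.045), with library size only (0.016), and without DMSO replicate 1 (0.030) or GTEA7 replicate 4 (0.023).

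Same-numbered libraries showed no shared deviation over all genes tested (correlations of -0.06 to 0.05). This cannot exclude a shared culture or day, because deviations of single genes also carry counting noise. With the replicate number as a block, 0 of the 33 genes fell with GTEA7, FANCG being at -0.12 (adjusted p = 0.14).

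Some counts of other lists moved by over 1.5 times. With library size only and GTEA1, the other Fanconi genes were 9 lower and 1 higher (5 and 2 as reported; 1 higher also with the block and without DMSO replicate 2 or GTEA1 replicate 4). Under the same scaling, 1 damage signalling gene (3 as reported), 3 excision genes (6), 1 other mismatch repair gene (2) and 0 E2F and DREAM regulators (1) were higher. With GTEA7, the S phase and mitosis genes that fell were 2 (5 as reported) with the block, with the DESeq2 test and without DMSO replicate 2 or 3 or GTEA7 replicate 3 or 4. Those that rose were 2 (0 as reported) with no filter, with DESeq2 size factors, with the block, with only the compared groups and without GTEA7 replicate 4, and 1 without DMSO replicate 1. Low counts limit RAD50, MSH3, RAD51B, RAD54B, FANCB and FANCF, whose standard errors were 0.11 to 0.13 in GTEA1 against DMSO.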

Other observations

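Genes that overlap members or share their start windows did not always move with them. ANKRD49, whose start window shares 239 bases with that of MRE11, rose with GTEA1 (log2 fold change 0.21 ± 0.09, edgeR, adjusted p = 0.033) where MRE11 fell (-0.33 ± 0.05). ORMDL1, whose window shares 210 bases with that of PMS1, rose (0.15 ± 0.05) as PMS1 did (0.30 ± 0.04). VRK2, a kinase gene that shares 18.7% of the exon bases of FANCL, rose (0.85 ± 0.07) where FANCL fell, and FBXO11, which shares 16.2% of those of MSH6, rose (0.50 ± 0.05) where MSH6 fell. The strand setting of the counting is not given, and the neighbours were chosen for their overlap.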
